A study of Mus musculus with 12 samples.

Results

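The Clec genes are the mouse genes whose symbols begin with Clec and a number, and they were taken by symbol from 2 count tables, with symbols ending in -ps left out. The rule found 33 genes among 53801 gene rows, and used no measured value. The tables hold RNA sequencing of cells sorted from skin squamous cell carcinomas of mice of the FVB strain, with 4 groups of 3 libraries, 12 in all. Tumor macrophages were sorted as CD45+ F4/80+ cells and divided by surface FceRIa, the chain of the high-affinity IgE receptor that binds IgE, into FceRIa-positive and FceRIa-negative macrophages. Basal tumor cells were sorted as Rosa-YFP+ cells with the integrins CD49f and CD29 on their surface, and divided by an mScarlet reporter of TGF-beta signalling into reporter-positive and reporter-negative cells. No source used here gives the tumor genotype, the age of the mice or the number of mice per library.

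C-type lectin receptors are surface proteins of myeloid cells that bind sugars, lipids or proteins of microbes and of damaged cells. The activating ones signal through the kinase SYK and the adaptor CARD9, either by a motif of their own or through the Fc receptor gamma chain (Fcer1g) or DAP12 (Tyrobp), and the inhibitory ones recruit the phosphatases SHP-1 (Ptpn6), SHP-2 (Ptpn11) and SHIP-1 (Inpp5d). A second branch of the family, the Clec2 genes, encodes ligands of receptors on natural killer cells, and a few members are secreted proteins or bear the name without being lectin receptors.

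Total counts were 33704786 to 40041144 per macrophage library and 27951632 to 35088897 per tumor library. Values are CPM, in which every library is scaled to the same size, and TPM where levels of different genes are compared, since TPM also divides by exon length. A count of 3 corresponds to 0.0697 to 0.107 CPM, which covers counting error only. Each comparison was fitted with edgeR's quasi-likelihood test, once unpaired and once paired, that is with the replicate number as a block, and adjusted p values are Benjamini-Hochberg values over all genes tested. Nothing in the labels says that replicates came from separate animals, so p values measure the spread between these libraries, which may be technical. In the macrophages Xist had 4 and 6 counts in replicate 2 (negative and positive library) and 16108 and 18122 in replicate 3. The Y-chromosome gene Ddx3y had 5972 and 4817 counts in replicate 2 and 3 and 6 in replicate 3. Those numbers therefore hold RNA of different mice. Replicate 1 held both transcripts, with 8506 and 12096 counts of Xist and 1287 and 1584 of Ddx3y. Sex and replicate number can therefore not be told apart in the macrophages. Fcer1a, the gene behind the macrophage sort, had 0 to 7 counts per macrophage library, so its transcript could not check the labels.

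Of the 33 genes, 25 lie on chromosome 6 (GRCm38, GENCODE M21). GENCODE lists Clec2f and Clec2j as pseudogenes and Clec7a as a polymorphic pseudogene, while the other 30 are protein coding. Clec4d and Clec4e, which encode the partner receptors MCL and Mincle, lie side by side at chr6:123262111-123275265 on the plus strand and chr6:123281789-123289870 on the minus strand. Upstream sequence from RefSeq (GRCm38.p6) was found for 25 of the 33 genes, as 28 stretches of 250 bases that end at the base before a transcription start. Below are the stretches of 5 genes that the comparisons turn on, 5′ to 3′ on the strand of the gene. Capitals mark matches of 4 motifs searched on both strands: GAGGAA (the core of the myeloid factor PU.1), TGANTCA (a loose form of AP-1), CACGTG (E-box) and TATAAA (the letters known as the TATA box). TGANTCA takes any middle base, while the AP-1 site itself has C or G there. Clec10a and Clec4n, also described below, are not in that table.
Clec11a, chr7:44306960-44307209: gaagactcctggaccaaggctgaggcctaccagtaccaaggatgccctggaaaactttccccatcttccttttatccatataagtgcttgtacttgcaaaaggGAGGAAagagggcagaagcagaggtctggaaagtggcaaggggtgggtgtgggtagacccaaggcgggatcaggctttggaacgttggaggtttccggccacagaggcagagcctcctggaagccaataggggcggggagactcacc
Clec4d, chr6:123261857-123262106: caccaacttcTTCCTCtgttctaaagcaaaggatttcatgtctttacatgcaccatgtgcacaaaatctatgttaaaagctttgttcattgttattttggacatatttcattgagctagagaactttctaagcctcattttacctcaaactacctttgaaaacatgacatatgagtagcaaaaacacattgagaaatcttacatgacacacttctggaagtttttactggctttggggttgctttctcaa
Clec4e, chr6:123289872-123290121: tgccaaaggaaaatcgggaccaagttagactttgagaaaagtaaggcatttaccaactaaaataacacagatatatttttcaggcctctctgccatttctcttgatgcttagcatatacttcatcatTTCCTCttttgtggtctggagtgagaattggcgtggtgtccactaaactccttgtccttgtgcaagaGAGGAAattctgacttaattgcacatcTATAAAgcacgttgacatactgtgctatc
Clec4a1, chr6:122921598-122921847: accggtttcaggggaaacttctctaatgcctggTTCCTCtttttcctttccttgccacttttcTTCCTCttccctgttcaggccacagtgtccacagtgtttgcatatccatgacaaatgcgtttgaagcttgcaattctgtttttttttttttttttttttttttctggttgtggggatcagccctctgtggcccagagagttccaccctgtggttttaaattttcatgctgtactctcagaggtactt
Clec2e, chr6:129100904-129101153: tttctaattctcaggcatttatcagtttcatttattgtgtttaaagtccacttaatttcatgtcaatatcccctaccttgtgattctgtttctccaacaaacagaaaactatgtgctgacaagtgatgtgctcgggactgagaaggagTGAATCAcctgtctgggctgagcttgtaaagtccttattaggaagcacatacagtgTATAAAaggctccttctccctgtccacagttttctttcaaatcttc
The PU.1 core stood in 15 of the 28 stretches, where 23.3% of all 32851 RefSeq stretches of that length hold it. Stretches of the same gene can overlap, and both of Clec7a hold the same PU.1 core. Matches also stood upstream of members low in the macrophages or not of myeloid type, such as Clec14a, Clec16a, Clec18a and Clec2l. TGANTCA stood in 5 of 28, against 6.75% of all stretches, TATAAA in 7 of 28, against 12.4%, and CACGTG in 0 of 28, against 6.02%. Clec4e holds 2 PU.1 cores and a TATA box that begins 29 bases before its start, and its neighbour Clec4d holds 1 PU.1 core, which begins 240 bases before its start. The upstream stretch of Clec2e holds TGAATCA, a match of the loose letters with A in the middle, and a TATA box and no PU.1 core. A match is a description of letters, not a binding site, and a missing match says only that those letters are not in that window.

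Clec4n had the highest level of all members in the macrophages. Clec4n, the gene of Dectin-2, a receptor for fungal mannans, had a level of 2192 ± 170 TPM in the FceRIa-negative and 2836 ± 391 TPM in the FceRIa-positive macrophages (SD, n = 3 here and below). Next came Clec4a3 at a mean of 461 TPM over the 6 macrophage libraries, Clec4a1 at 428, Clec7a at 418, Clec5a at 309, Clec2d at 264, Clec4d at 213, Clec4a2 at 197, Clec10a at 129 and Clec4e at 64.6 TPM. Clec4n stood apart from the rest, and the levels of Clec4a3, Clec4a1 and Clec7a did not differ beyond their spread. With the longest coding transcript as the length, Clec4n stayed first and Clec7a moved from place 4 to place 2.

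Role and cluster did not fully divide high from low members. Of the high members, Clec4n, Clec4a3, Clec4a1, Clec4d, Clec4a2 and Clec4e belong to the Dectin-2 cluster, while Clec7a, Clec5a, Clec2d and Clec10a lie outside it. That cluster also held Clec4b1, Clec4a4 and Clec4b2, at mean levels of 16.6, 6.48 and 0.23 TPM. Clec12a, Clec4b1, Clec16a and Clec2g had mean levels of 10.7 to 19.5 TPM, and the remaining 19 genes had 6.48 TPM or less. Members known from other cell types had few counts. Clec9a, the receptor for exposed actin on cross-presenting dendritic cells, had 1 to 7 counts per macrophage library, and Clec1b, the podoplanin receptor CLEC-2 of platelets, had 8 to 17. Clec4f, a receptor of liver macrophages, had 1 count in 1 macrophage library and 0 in the others. Clec4g, a lectin of sinusoidal endothelium, had 21 and 27 counts in replicate 2 and at most 4 in the other macrophage libraries.

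The basal tumor cells held a different and much lower set. All members together took 0.290% to 0.361% of the counts in the macrophages and 0.00788% to 0.0107% in the tumor cells. The highest levels in the tumor cells were those of the pseudogene Clec2f, at 66.0 to 93.0 TPM, of Clec2d, at 37.0 to 50.2 TPM, and of Clec16a, at 11.8 to 13.9 TPM. This order rests on the annotated lengths, which for Clec2f is 657 exon bases. By counts Clec16a was first in every tumor library, with 36.7% to 49.2% of all Clec counts. Clec2d encodes Clr-b, the ligand by which cells engage the inhibitory receptor NKR-P1B, and Clec16a encodes a regulator of endosomes and mitophagy that is not a surface lectin. Clec2j, Clec4n, Clec2l, Clec2g and Clec2e had means of 1.35 to 3.61 TPM, and the other 25 genes were below 1 TPM.

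**Figure D1:**
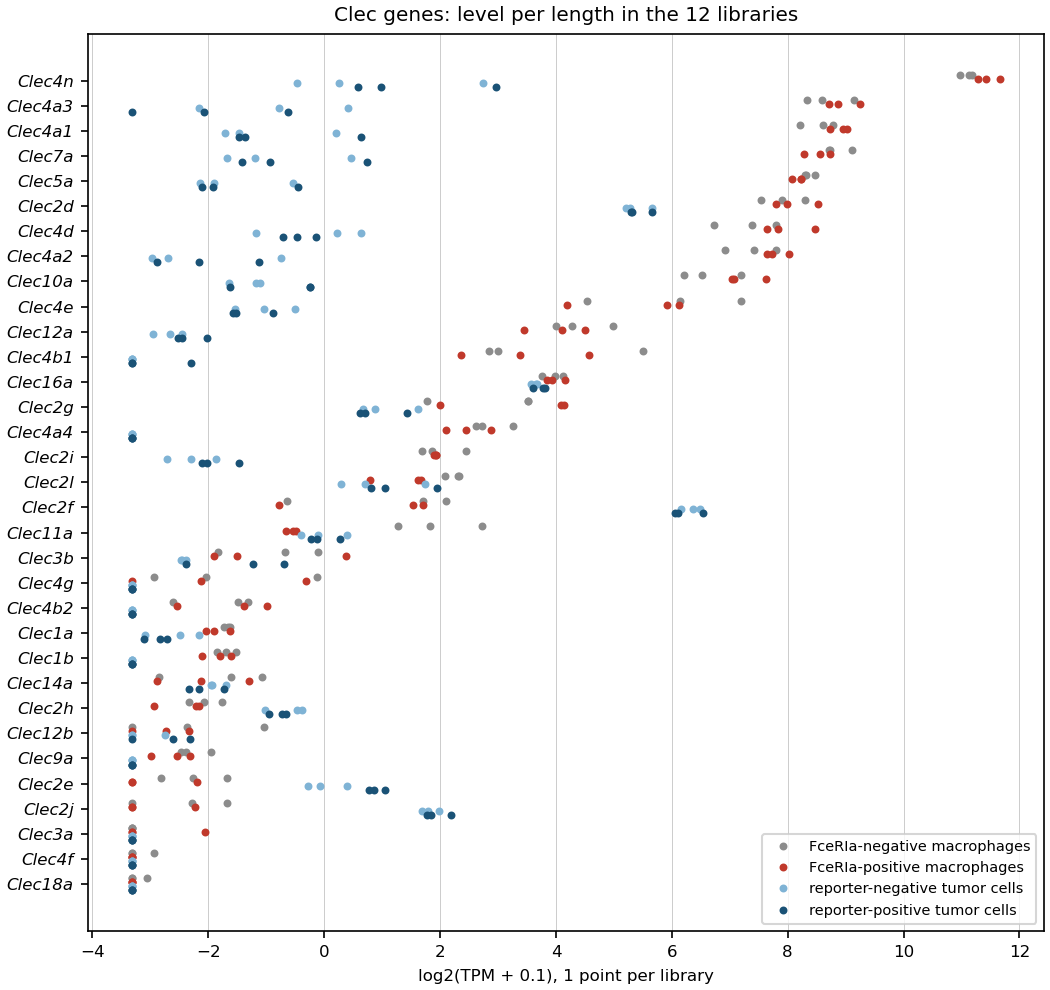
Level per length of each of the 33 Clec genes in the 12 libraries, as log2(TPM + 0.1), with 1 point per library and colors for the 4 groups. Genes are ordered by their mean over the macrophage libraries. Clec4n stands highest in the macrophages, and Clec2f, Clec2j, Clec2e and Clec2h are the genes whose tumor libraries lie to the right of every macrophage library.

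Macrophages and tumor cells came from separate sorts and separate tables, so cell type and experiment cannot be told apart in this setting side by side. Among the 25 members tested in either comparison, 16 had every macrophage library above every tumor library in CPM, as did 39.3% of the 16231 genes tested. In 4 members every macrophage library lay below, as in 32.0% of all genes. The 4 were Clec2e, Clec2f, Clec2h and Clec2j, all from the Clec2 branch. Clec2f had 15.2 to 24.8 CPM in the tumor cells and 0.118 to 0.929 CPM in the macrophages. Clec2d went the other way within the same branch, with 74.7 to 147 CPM in the macrophages and 15.9 to 24.7 CPM in the tumor cells. Clec16a overlapped, at 35.0 to 48.7 CPM in the macrophages and 35.4 to 41.2 CPM in the tumor cells.

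The macrophage comparison asked what distinguishes FceRIa-positive from FceRIa-negative macrophages. In the paired fit Clec4d, Clec10a, Clec4a1, Clec4a2, Clec4n and Clec2g rose and Clec11a fell in the positive macrophages, while the unpaired fit called no member. Clec11a, which encodes a secreted growth factor of blood and bone progenitors, differed most, at 0.149 times its negative level. The 6 that rose did so by 1.34 to 1.64 times. The abundant activating receptors Clec7a (Dectin-1) and Clec5a (MDL-1) and the inducible Clec4e (Mincle) did not pass in either fit. Some alternative paired fits called Clec7a or Clec4e lower.

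The filter on low counts kept 22 of the 33 members among 14988 genes. The unpaired edgeR fit called 0 of the 22, and 0.0% of all genes, at an adjusted p under 0.05. At an unadjusted p under 0.05 it had 4 of 22 members and 2345 genes (15.6%), and the unpaired DESeq2 fit called 2 members, Clec11a (adjusted p = 3.11e-06) and Clec4n (adjusted p = 0.0325), among 1263 genes. The paired edgeR fit called 7 of 22 members (21.0% of all genes), 6 higher (10.8% of all genes) and 1 lower (10.2%). The median log2 difference of the 22 members was -0.13 in the paired fit, and that of all genes was -0.0039. In 4 members the groups did not overlap, Clec4n and Clec4a1 higher (11.6% of all genes) and Clec11a and Clec2l lower (9.75%), and 21.4% of all genes had groups that did not overlap. The 11 members that the filter left out were Clec12b, Clec18a, Clec2e, Clec2h, Clec2j, Clec3a, Clec3b, Clec4b2, Clec4f, Clec4g and Clec9a, with at most 27 counts in any macrophage library.

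**Figure D2:**
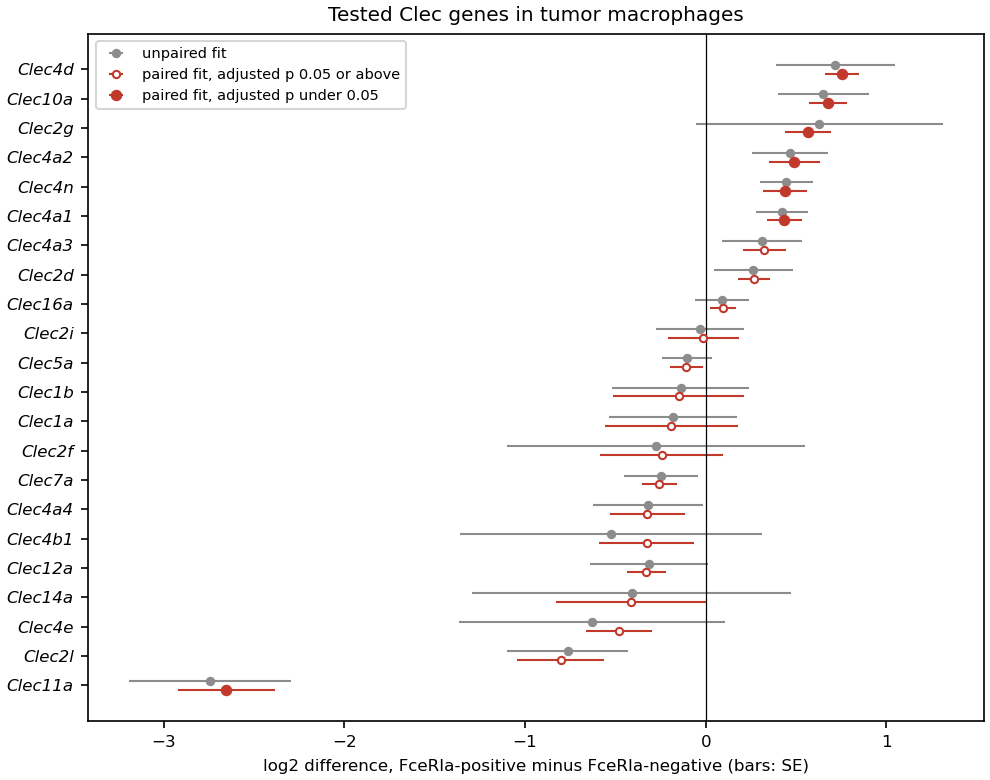
Log2 difference, FceRIa-positive minus FceRIa-negative macrophages, for the 22 tested Clec genes, in the unpaired fit (grey) and the paired fit (red, filled where the adjusted p is under 0.05), with bars of 1 SE. The pairing moves the estimates little and shortens most bars, and Clec11a lies far below the rest at -2.74 and -2.65.

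Clec11a (ENSMUSG00000004473, chr7:44302687-44306902, minus strand, upstream stretch printed above) was at 2.31, 3.18 and 6.45 CPM in negative replicates 1 to 3 and at 0.524, 0.573 and 0.677 CPM in positive replicates 1 to 3. These are 92, 137 and 218 counts against 19, 21 and 23, so the groups lay far apart although the gene is lowly expressed. In bulk samples fewer cells of a type and less RNA per cell cannot be told apart. The log2 difference was -2.74 ± 0.45 (SE, adjusted p = 0.0591, edgeR) unpaired and -2.65 ± 0.27 (adjusted p = 0.000611) in the paired fit. With no filter on counts the unpaired edgeR fit also called it (adjusted p = 0.00388), and it was the 1 member called there.

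Langerhans cell markers moved with Clec11a. The summed level of their 5 genes was 331, 396 and 802 CPM in negative replicates 1 to 3 and 70.9, 79.8 and 91.3 CPM in the positive ones, and 4 of the 5 fell in the paired fit. Cd207, the Langerhans cell lectin langerin, was at 147 ± 89.7 CPM in the FceRIa-negative and 18.9 ± 16.6 CPM in the FceRIa-positive macrophages. Within the negative group Clec11a and the marker sum were lowest in replicate 1 and highest in replicate 3. Of 13 dendritic cell markers 9 fell in the paired fit, and of 8 monocyte markers 6 fell. The part of these cells in the difference of Clec11a was not tested.

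The Dectin-2 cluster on chromosome 6 held most of the members that rose. Clec4n was at 1068, 1030 and 946 CPM in the negative and 1168, 1522 and 1460 CPM in the positive macrophages, so each positive library lay above each negative one. Its share of all Clec counts was 32.8% to 36.6% in the negative and 38.5% to 42.5% in the positive libraries. The log2 difference was 0.45 ± 0.15 (adjusted p = 0.204, edgeR) unpaired and 0.44 ± 0.12 (adjusted p = 0.0376) paired. Without replicate 2 it was 0.38 (adjusted p = 0.203) in the paired fit.

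Clec4d, whose product MCL binds mycobacterial glycolipid and pairs with Mincle, was at 119, 52.6 and 89.1 CPM in the negative and 187, 105 and 136 CPM in the positive macrophages. The positive library was the higher of each replicate number, and the groups overlapped because replicate 2 was low in both. The log2 difference was 0.72 ± 0.33 (adjusted p = 0.371, edgeR) unpaired and 0.75 ± 0.09 (adjusted p = 0.00134) paired.

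Its neighbour Clec4e (Mincle), an inducible receptor for mycobacterial cord factor and for products of dead cells, did not pass in either fit. Clec4e was at 118, 35.7 and 241 CPM in the negative and 114, 29.6 and 111 CPM in the positive macrophages, with both libraries of replicate 2 the lowest and negative replicate 3 the highest. The log2 difference was -0.63 ± 0.74 (adjusted p = 0.811, edgeR) unpaired and -0.48 ± 0.18 (adjusted p = 0.104) paired, and 0.13 unpaired without negative replicate 3. Over the alternative paired fits (edgeR and DESeq2) it ranged from -0.72 to -0.15, and the adjusted p from 2.99e-06 to 0.361. Whether Clec4e was called lower with pairing therefore depended on the setting. The count ratio of Clec4d to Clec4e in a library was 1.01 and 1.64 for replicate 1 (negative, then positive library), 1.47 and 3.57 for replicate 2, and 0.370 and 1.22 for replicate 3. All 3 numbers had the higher ratio in their positive library, and the groups overlapped. The log2 ratio was higher by 1.23 in the positive macrophages. A two-sided exact permutation test over the 6 libraries, which ignored the replicate numbers, gave p = 0.2, where 0.1 is the smallest p possible.

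Neutrophil markers were also low in replicate 2. The sum of 12 neutrophil genes was 722, 144 and 728 CPM in negative replicates 1 to 3 and 445, 158 and 298 CPM in the positive ones, and 5 of the 9 tested fell in the paired fit. S100a9, a neutrophil alarmin, was at 23.1 and 18.8 CPM in replicate 2 and at 58.4 to 252 CPM in the other macrophage libraries, while the defining marker Ly6g was at or below 0.276 CPM in all 6. The part of neutrophils in the levels of Clec4d and Clec4e was not tested.

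The DCIR-type receptors of the same cluster split into abundant and rare genes. Clec4a1 was at 203, 215 and 155 CPM in the negative and 254, 267 and 246 CPM in the positive macrophages, with no overlap. It rose with pairing by a log2 difference of 0.44 ± 0.09 (adjusted p = 0.0144, edgeR), and its unpaired log2 difference was 0.42 ± 0.15 (adjusted p = 0.218). Without replicate 1 the paired adjusted p of Clec4a1 was 0.0691. Clec4a2, the inhibitory receptor DCIR, was at 167, 203 and 118 CPM against 194, 250 and 230 CPM, with overlapping groups and a higher positive library in each number. It rose with pairing by 0.49 ± 0.14 (adjusted p = 0.0423, and 0.363 unpaired), and its paired adjusted p was 0.0926 without replicate 1 and 0.068 with upper-quartile scaling.

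Clec4a3 had a paired log2 difference of 0.32 ± 0.12 (adjusted p = 0.0948, edgeR) and Clec4a4, at 1.21 to 2.30 CPM, one of -0.32 ± 0.21 (adjusted p = 0.315). Clec4b1 was at 11.1 and 6.13 CPM in replicate 2 and at 1.3 to 3.0 CPM in the other macrophage libraries, so it varied more by replicate number than by group. Its close relative Clec4b2 stayed at or below 0.177 CPM. Shared sequence limits some of these values: 15.7% of the 50-base windows in the transcripts of Clec4a4 also occur in Clec4a2, 8.68% of those of Clec4b1 occur in Clec4a2, and Clec4a1, Clec4a3, Clec4d and Clec4e share none with another gene.

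**Figure D3:**
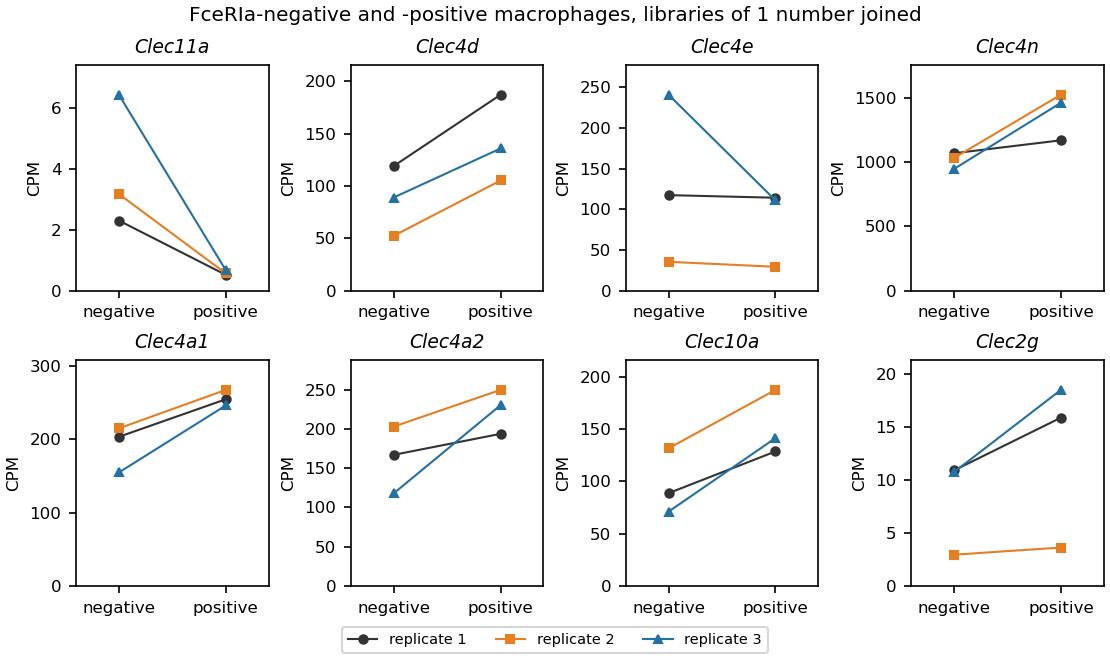
CPM of 8 Clec genes in the macrophages, 1 panel per gene with its own axis from 0, with lines joining the FceRIa-negative and FceRIa-positive library of the same replicate number. All lines fall for Clec11a and all rise for Clec4d, Clec4n, Clec4a1, Clec4a2, Clec10a and Clec2g, while Clec4e drops steeply in replicate 3 alone.

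Tested members of the Dectin-1 cluster had negative log2 differences that did not pass in either fit. Clec7a, the receptor for fungal beta-glucan, was at 374, 346 and 486 CPM in the negative and 270, 326 and 418 CPM in the positive macrophages, lower in the positive library of each number. Its log2 difference was -0.25 ± 0.21 (adjusted p = 0.684, edgeR) unpaired and -0.26 ± 0.10 (adjusted p = 0.104) paired. Clec12a, an inhibitory receptor for uric acid crystals, was at 29.4, 54.6 and 35.3 CPM against 19.8, 41.2 and 35.1 CPM, with a paired log2 difference of -0.33 ± 0.11 (adjusted p = 0.0701). Without replicate 3 the paired edgeR fit called both lower, Clec7a at an adjusted p of 0.0492 and Clec12a at 0.000311. Without replicate 1 their adjusted p values were 0.357 and 0.318. Upper-quartile scaling, which lowers each log2 difference slightly, brought the paired adjusted p of Clec12a and Clec2l to 0.0458 and 0.0414 and those of Clec4n and Clec4a2 to 0.0652 and 0.068, so that 4 members were higher and 3 lower. Clec1a, at 0.245 to 0.386 CPM, and Clec1b, at 0.221 to 0.395 CPM, had paired log2 differences of -0.19 ± 0.37 and -0.15 ± 0.36. Exons of Clec1b and Clec9a overlap by 184 bases on 1 strand, so their few reads are uncertain.

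Clec5a and Clec10a belong to neither cluster. Clec5a, which signals through DAP12, was at 409, 374 and 454 CPM in the negative and 342, 378 and 431 CPM in the positive macrophages, and its paired log2 difference was -0.11 ± 0.09 (adjusted p = 0.449, edgeR). Clec10a (MGL1, chr11:70156197-70170834), a receptor for galactose and N-acetylgalactosamine, was at 88.7, 132 and 71.1 CPM against 129, 187 and 141 CPM, with replicate 2 the highest in both groups. Paired, it rose by 0.68 ± 0.11 on the log2 scale (adjusted p = 0.0034, edgeR), and the unpaired log2 difference was 0.65 ± 0.25 (adjusted p = 0.279). Its paralog Mgl2 shares 8.49% of the 50-base windows of Clec10a and fell, with a paired log2 difference of -0.56 ± 0.14 (adjusted p = 0.0233).

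Among the Clec2 genes, Clec2g was at 10.9, 2.95 and 10.7 CPM in the negative and 15.9, 3.63 and 18.5 CPM in the positive macrophages, low in both libraries of replicate 2. It rose with pairing, by 0.56 ± 0.13 (adjusted p = 0.017, edgeR, and 0.789 unpaired), and its paired adjusted p without replicate 1 was 0.132. Clec2d was at 97.3, 119 and 74.7 CPM against 102, 147 and 101 CPM, with a paired log2 difference of 0.27 ± 0.09 (adjusted p = 0.0687). Clec2l was at 1.98, 2.18 and 2.31 CPM against 0.773, 1.45 and 1.59 CPM, with no overlap, a paired log2 difference of -0.80 ± 0.24 and an adjusted p of 0.0514. Clec2i, at 3.22 to 5.18 CPM, and the pseudogene Clec2f, at 0.118 to 0.929 CPM, had paired log2 differences of -0.01 ± 0.20 and -0.24 ± 0.34. Clec14a, a protein of endothelial cells, was at 0.0589 to 0.534 CPM, with a paired log2 difference of -0.41 ± 0.42, and Clec16a had one of 0.10 ± 0.07.

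The other parts of the pathway were described from lists of genes. Beside their counts stands the share of all genes called in the macrophage paired fit, 10.8% higher and 10.2% lower. Of 26 genes of adaptors, kinases and outputs of C-type lectin receptor signalling, 0 passed in the unpaired fit, while with pairing 5 rose and 4 fell, at a median of 0.05 on the log2 scale beside -0.0039 for all genes. Fcer1g, the gamma chain through which Clec4n, Clec4d and Clec4e signal, was at 810, 739 and 680 CPM in the negative and 944, 983 and 1097 CPM in the positive macrophages, and rose by a paired log2 difference of 0.44 ± 0.11 (adjusted p = 0.0274, edgeR). Card9, the adaptor downstream of SYK, was at 166, 174 and 216 CPM against 109, 128 and 121 CPM and fell, with a paired log2 difference of -0.63 ± 0.09 (adjusted p = 0.00258). Il10, an output cytokine, rose by 1.60 ± 0.24 and Vav3 by 0.47 ± 0.08, and Blnk and Lyn also rose, while Plcg2, Malt1 and Fgr fell. Tyrobp, which carries the signal of Clec5a, had a paired log2 difference of 0.08 ± 0.10 (adjusted p = 0.639).

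Of the 4 phosphatase genes, Inppl1 rose by 0.50 ± 0.08 (paired adjusted p = 0.00328, edgeR) and Ptpn6 fell, with a paired log2 difference of -0.34 ± 0.08 (adjusted p = 0.0255). Inpp5d and Ptpn11 had paired log2 differences of 0.12 ± 0.08 and 0.02 ± 0.07. The unpaired fit called 0 of the 4.

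Of 32 tested genes of other C-type lectin receptors, 0 passed unpaired, while with pairing 7 rose and 14 fell, at a median of -0.31 on the log2 scale. The summed level of all 42 genes of the list went the other way, at 2278 to 2814 CPM in the negative and 3558 to 4924 CPM in the positive macrophages. The largest contribution was that of the mannose receptor gene Mrc1, at 747 to 1197 CPM against 2212 to 3923 CPM. The paired fit had Cd209f and Cd209g, members of the DC-SIGN group, up by 4.83 ± 0.34 and 4.53 ± 0.36 from 0.619 ± 0.504 and 0.189 ± 0.112 CPM (adjusted p = 0.000191 and 0.000254, edgeR). These close paralogs may share reads, which the sources used here do not settle. Ly75 (DEC-205), an uptake receptor of dendritic and Langerhans cells, fell from 42.2 ± 29.9 to 2.48 ± 1.09 CPM, a paired log2 difference of -3.94 ± 0.36, and the natural killer receptor gene Klrd1 from 3.29 ± 0.81 to 0.581 ± 0.146 CPM, one of -2.48 ± 0.27.

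Of 14 tested ligands and partners of Clec proteins, 0 passed unpaired, and 1 rose and 5 fell in the paired fit. Klrb1b, the receptor that binds Clec2d, was at 141, 146 and 172 CPM in the negative and 41.5, 73.1 and 64.8 CPM in the positive macrophages and fell, with a paired log2 difference of -1.39 ± 0.14 (adjusted p = 0.000538, edgeR). Clec2d itself did not pass. Klrb1f fell by 2.13 and Klrb1a by 0.68, while Pdpn, the ligand of CLEC-2, rose by 0.75 ± 0.11 (adjusted p = 0.00315).

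Markers of several cell types differed between the same libraries. The sum of 14 macrophage markers was 9874 to 13245 CPM in the negative and 17489 to 19710 CPM in the positive macrophages, and 13 of the 14 rose in the paired fit. Keratinocyte markers summed to 1802 to 4071 CPM in the negative and 584 to 2549 CPM in the positive macrophages, and 7 of 10 fell. Mast cell and basophil markers summed to 77.3, 20.2 and 159 CPM in the negative against 34.9, 10.5 and 42.5 CPM in the positive macrophages, and 4 of the 10 tested fell. The 13 dendritic cell markers summed to 1383 to 1489 CPM against 1034 to 1311 CPM. Of the 6 tested markers of T and natural killer cells 5 fell and 1 rose with pairing, at a median of -3.68 on the log2 scale. The sum of that list went the other way, at 71.4 to 85.3 CPM in the negative and 124 to 172 CPM in the positive macrophages. Platelet markers summed to 25.7 to 81.7 CPM in the negative and 224 to 387 CPM in the positive macrophages without overlap, and 3 of the 6 tested rose. Most of that sum was Pf4, a chemokine gene also expressed by macrophages, at 19.5 to 70.5 CPM against 213 to 352 CPM, while the platelet integrin gene Itga2b was at 0.709 to 2.51 CPM and Gp9 at or below 0.0589 CPM. The part of these shifts in the Clec genes that rose was not tested.

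The tumor comparison asked which genes distinguish basal tumor cells that respond to TGF-beta. Clec2e, the Clr-a gene, rose in the reporter-positive cells in the paired fit, and no member passed the unpaired fit. The genes of highest level, Clec2f, Clec2d and Clec16a, differed by 1.11 times or less between the groups.

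The filter kept 14 of the 33 members among 13604 genes. The unpaired edgeR fit called 0 of the 14 (0.809% of all genes, 0.573% higher and 0.235% lower), with 2 at an unadjusted p under 0.05 (19.4% of all genes), and the unpaired DESeq2 fit called 0. The paired edgeR fit called 1 of 14 (18.0% of all genes), 1 higher (10.7%) and 0 lower (7.34%). Groups did not overlap in 2 members, Clec2e and Clec16a, both higher, as in 28.1% of all genes (14.6% higher and 13.5% lower). The median log2 difference of the 14 was 0.12 in either fit, and that of all genes was 0.0031 unpaired and 0.00087 paired. Of the 19 members left out, 8 had no count in any tumor library, which allows up to 0.107 CPM, and the largest value among the rest was 0.983 CPM.

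Clec2e (ENSMUSG00000030155, chr6:129091998-129100913, minus strand) was at 0.626, 0.916 and 0.539 CPM in the reporter-negative and 1.26, 1.67 and 1.17 CPM in the reporter-positive cells, or 19 to 28 against 33 to 51 counts. Each positive library lay above each negative one. The log2 difference was 0.98 ± 0.29 (adjusted p = 0.139, edgeR) unpaired and 0.99 ± 0.21 (adjusted p = 0.028) paired. The paired adjusted p was 0.0838 without replicate 1, 0.111 without replicate 3 and 0.173 by DESeq2, and 0.00523 without replicate 2. Tumor replicates 1 and 3 were close to each other in both groups, as described below. Their spread may therefore be technical, and neither the adjusted p of 0.028 nor that of 0.00523 shows replication over separate animals.

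Clec16a was at 37.1, 35.4 and 36.9 CPM against 39.9, 41.2 and 40.4 CPM, a small difference of 0.15 ± 0.05 on the log2 scale (adjusted p = 0.2 unpaired and 0.109 paired, edgeR). Clec2d was at 16.4, 21.9 and 15.9 CPM against 16.5, 24.7 and 16.7 CPM, and Clec2f at 16.4, 21.2 and 19.2 CPM against 15.2, 24.8 and 15.7 CPM. Both were highest in replicate 2 of each group, with paired log2 differences of 0.08 ± 0.07 and -0.06 ± 0.11. Clec11a, which fell in the FceRIa-positive macrophages, was at 0.683 to 1.34 CPM in the tumor cells, with a paired log2 difference of 0.06 ± 0.22. Clec2g, Clec2h, Clec2j and Clec2l had paired log2 differences from -0.14 to 0.40, and none passed.

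Transcripts of the macrophage receptors were low in the tumor cells, and most were highest in replicate 2. Among the 10 members highest in the macrophages, 8 had both libraries of replicate 2 above the other 4 tumor libraries. Of all genes tested 20.5% did, while Clec4d and Clec10a did not. The 8 include Clec2d, which was at 15.9 to 24.7 CPM in the tumor cells. Members outside the 10, such as Clec2f, Clec2g, Clec2l and Clec11a, had the same order, so it was not particular to the macrophage receptors. Clec4n was at 0.54, 3.37 and 0.312 CPM in the reporter-negative and 0.695, 4.46 and 0.923 CPM in the reporter-positive cells, and Clec7a at 0.313, 1.21 and 0.198 against 0.253, 1.67 and 0.391 CPM. The 2 libraries of replicate 2 were the highest for both genes. The macrophage genes C1qa, at 9.97 and 12.3 CPM in replicate 2 and 2.08 to 2.75 CPM elsewhere, and Csf1r, at 8.11 and 11.3 against 1.56 to 2.72 CPM, had the same order, as had 7 of the 14 macrophage markers in all. Of the 14, 10 were higher in the reporter-positive library of every replicate number, and 2 of the 12 tested rose in the paired fit. The Langerhans cell marker Cd207 was at or below 0.164 CPM in the tumor libraries. The part of macrophage RNA in these values was not tested.

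**Figure D4:**
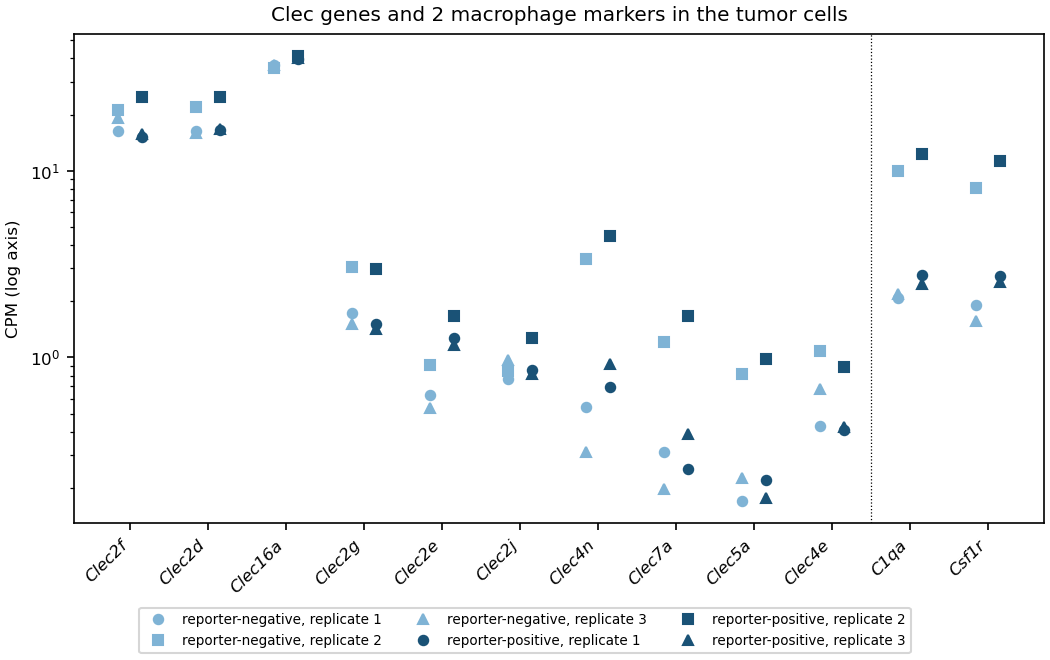
CPM on a log axis of 10 Clec genes and of the macrophage markers C1qa and Csf1r (right of the dotted line) in the 6 tumor libraries, with light points for reporter-negative and dark points for reporter-positive cells and a marker shape per replicate number. The squares of replicate 2 lie above the other libraries for Clec2f, Clec2d, Clec2g, Clec4n, Clec7a, Clec5a and Clec4e, and for C1qa and Csf1r. Clec2e is higher in all 3 dark points.

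Without replicate 2 of either group, the unpaired fit called 4 of the 15 members tested, and 5401 of 13620 genes (39.7%). Clec10a was higher by 1.32 (adjusted p = 0.0113, edgeR) and Clec2e by 1.06 (adjusted p = 0.0083), and Clec4d was lower by a log2 difference of -1.16 (adjusted p = 0.0265) and Clec2f by one of -0.21 (adjusted p = 0.0361). Clec10a was at 0.37 and 0.227 CPM against 0.758 and 0.746 CPM in these 4 libraries, and at 0.36 and 0.262 CPM in replicate 2. Replicates 1 and 3 were close to each other: the chi-square of their counts, divided by its degrees of freedom, was 2.97 (negative) and 1.62 (positive), and it was 43.1 to 90.6 where replicate 2 was compared. The p values without replicate 2 are therefore set against the small spread of these 2 numbers, which may be technical. The tumor fits on all 6 libraries also count these 2 numbers as separate replicates.

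Partners of the Clec proteins on the tumor cell side were measured from the same lists. Vim, whose product binds Dectin-1, was at 29.4, 26.9 and 30.6 CPM against 47.9, 51.4 and 55.3 CPM and rose by 0.83 ± 0.08 in the unpaired fit (adjusted p = 0.0341, edgeR), the 1 of 9 tested partners that passed there. In the paired fit 3 of the 9 rose. Of the 22 tested signalling genes 4 rose and 1 fell in the paired fit, of the 4 phosphatase genes 1 rose, and of 9 tested other C-type lectin receptors 3 rose, Thbd, Mrc1 and Ly75. Of all genes tested in the tumor cells, 10.7% were higher and 7.34% lower in that fit, so these small counts do not set the lists apart. The unpaired fit called 0 in these 3 lists.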

How the data were processed

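RNA of sorted cells was sequenced from TruSeq v2 libraries started from 100 ng of RNA (per the labels' protocols). The authors deposited raw counts of reads per gene. Per the submitters' processing notes, FastQC and STAR were used on mm10 (GRCm38). No version, counting tool, annotation or strand setting is given in the sources used here. Reads that similar or overlapping genes share are therefore uncertain. The share of rows that named no gene was 0, and 4 count columns of no sample in this series were left out. Of the IDs, 53620 were found in GENCODE M21, and coordinates and exon lengths for TPM come from it. Groups and replicate numbers come from the sample titles.

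Each comparison was fitted on its own 6 libraries with edgeR 4.0.16 in R 4.3.3 (TMM, filterByExpr, quasi-likelihood test, threshold 0.05). The replicate number as a block, other scalings and filters, DESeq2 1.42.0 and leaving out libraries were alternatives. Fits without both libraries of a number, paired or not, and paired fits with DESeq2, other scalings or no filter were added after seeing the data. What a number marks is not stated. Deviations from group means correlated at 0.729, 0.831 and 0.762 between macrophage libraries of the same number, each above any other number, and at 0.554, 0.733 and 0.56 between tumor libraries, where numbers 1 and 3 could not be told apart (0.571 between negative 1 and positive 3). All were over 0.1, so the numbers were used as pairs. Residual degrees of freedom were 2 paired and 4 unpaired.

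All 33 members are accounted for. Of each list of other genes, the text takes the counts called and up to 4 genes with the smallest unpaired macrophage p, and Lyn, Blnk, Plcg2, Malt1, Fgr, Tyrobp, Mgl2, Cd207, S100a9, Ly6g, C1qa, Csf1r, Vim, Thbd, Mrc1, Pf4, Itga2b and Gp9 were named with their values known. Summed levels of the macrophage and Langerhans cell markers in the tumor cells are not reported here. The members and lists were chosen with earlier results of these data known.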

Additional observations from a re-analysis of the deposited data

How the results depend on the processing

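Among the macrophages the unpaired fit called 0 members and 0 genes. Other unpaired settings called 2 members and 1263 genes (DESeq2) and 1 member and 623 genes (no count filter). The paired fit called 7 members and 3142 genes, with 7 and 2807 by DESeq2, 8 and 3160 with DESeq2 size factors, 13 and 4084 with no count filter, 7 and 3157 with upper-quartile factors, and 3 and 1607 at an adjusted p under 0.01. Leaving out libraries gave 0 members and 0 to 2 genes unpaired, and 4 members and 1317 genes (replicate 1), 6 and 2672 (replicate 2) and 11 and 3349 (replicate 3) in the paired fit. Without replicate 3 the called members were Clec11a, Clec12a, Clec2l, Clec4b1 and Clec7a lower, and Clec10a, Clec2g, Clec4a1, Clec4a2, Clec4d and Clec4n higher. Clec11a, Clec10a and Clec4d were called in each of these paired fits at the threshold of 0.05.

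Among the tumor cells the unpaired fit called 0 members and 110 genes, against 1163 genes by DESeq2, 209 with no count filter and 0 at the 0.01 threshold. With pairing 1 member and 2449 genes were called, with 1687 genes by DESeq2, 1 and 2452 with DESeq2 size factors, 1 and 3115 with no count filter, 1 and 2479 with upper-quartile factors, and 425 genes at an adjusted p under 0.01. Leaving out 1 library gave 0 to 621 genes unpaired, and leaving out both libraries of a number gave 0 (number 1), 5401 with 4 members (number 2) and 0 (number 3). The paired fit without a number called 1553 genes (number 1), 5729 with 4 members (number 2) and 1143 (number 3).

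Some members that were not called in the full fits changed sign when libraries were left out. With 1 macrophage library left out, the log2 differences ranged from -1.31 to 0.21 for Clec14a, -0.022 to 0.18 for Clec16a, -0.29 to 0.066 for Clec1b, -0.75 to 0.27 for Clec2f, -0.19 to 0.20 for Clec2i, -1.22 to 0.84 for Clec4b1 and -1.07 to 0.13 for Clec4e. With 1 tumor library left out, they ranged from -0.23 to 0.34 for Clec11a, -0.13 to 0.25 for Clec2d, -0.30 to 0.095 for Clec2f, -0.51 to 0.28 for Clec2g, -0.36 to 0.0050 for Clec2h, -0.051 to 0.30 for Clec2j, -0.15 to 0.98 for Clec2l, -0.79 to 0.050 for Clec4e, -0.79 to 2.24 for Clec4n and -0.82 to 1.58 for Clec7a. Leaving out both libraries of a number changed the sign, paired and unpaired in that order, for Clec2f (0.037 and 0.028, number 1), Clec2i (0.22 and 0.22, number 2) and Clec4b1 (0.033 and 0.12, number 2) in the macrophages. In the tumor cells it did so for Clec11a (-0.053 and -0.036, number 1), Clec2h (0.079 and 0.061, number 3), Clec2j (-0.050 and -0.056, number 2), Clec4d (0.15 and 0.12, number 3) and Clec2f (0.062 and 0.089, number 3, and 5.1e-05 unpaired without number 1).

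With 3 libraries per group, members under about 1 CPM rest on few counts, and edgeR with the count filter called macrophage Clec members only with pairing. The cause of the gap between the paired and unpaired counts was not tested.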
